A study of Rattus norvegicus with 12 samples.

Results

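The MAP kinase phosphatases, the dual-specificity enzymes that switch MAP kinases off, were followed as 10 genes (Dusp1, Dusp2, Dusp4, Dusp5, Dusp6, Dusp7, Dusp8, Dusp10, Dusp14 and Dusp16) of 14506 genes measured in rat vascular smooth muscle cells exposed to angiotensin II (Ang II), a vessel-constricting peptide hormone. The genes were chosen by name, each had 1 probe set with 1 gene symbol on the array, and no filter on low values was applied, so that all 10 entered every comparison. The cells, labelled as differentiated and derived from Sprague-Dawley aorta, had been grown with 10% serum, then held serum-free for 48 h, and were profiled on Affymetrix Rat Gene 1.0 ST arrays in 4 groups of 3. The control received no Ang II, and the other groups received 100 nM Ang II for 6 h, 12 h or 24 h. The treatment protocol in the labels names 1, 3 or 24 h instead, and the times of the sample titles and of the design are used here. The replicates are called biological without a statement of separate animals or cultures, so that the p-values reflect array-to-array spread, which may be technical. The labels give no passage or clone of the cells. Untreated cells held for the same extra 6, 12 or 24 h were not analysed here, and Ang II and time in culture cannot be told apart.

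MAP kinases become active when an upstream kinase phosphorylates a threonine and a tyrosine in their activation loop, and the MAP kinase phosphatases remove both phosphates. Several of their genes are themselves induced through ERK, JNK or p38, the main MAP kinases, so that the enzymes act as feedback inhibitors of the signal that induces them. Family members differ in their place in the cell and in their preferred substrate: Dusp1, Dusp2, Dusp4 and Dusp5 are nuclear, Dusp6 and Dusp7 are cytosolic and prefer ERK, and Dusp8, Dusp10 and Dusp16 prefer JNK and p38 and are found in both compartments. Dusp14 is a small member without the amino-terminal kinase-binding domain of the others. In vascular smooth muscle, Ang II acts through its type 1 receptor to activate ERK, JNK and p38.

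All values are log2 expression as deposited, from arrays whose medians over all probe sets lay between 7.22 and 7.32, and a difference of 1 on this scale is a doubling. Differences come from limma, a linear model with moderated variance, fitted to all 14506 genes and 12 arrays, and a gene is said to have risen or fallen where its p-value, adjusted over all genes of that comparison by Benjamini and Hochberg's method, was under 0.05. The median standard error of a difference was 0.0667. Of the smooth muscle markers, Acta2 lay at 14.35 to 14.49 and Myh11 at 12.69 to 13.40 over the 12 arrays, whereas the endothelial marker Pecam1 lay at 5.95 to 6.41 and the leukocyte marker Ptprc at 5.20 to 5.65. The mean log2 level of 8 smooth muscle markers was 12.17 to 12.21 in control and 12.59 to 12.61 at 24 h, and that of 6 fibroblast markers was 9.71 to 9.78 in control, 9.25 to 9.31 at 6 h, 9.24 to 9.29 at 12 h and 9.07 to 9.13 at 24 h. The 6 endothelial markers measured had mean levels of 6.00 to 6.21 over the 12 arrays and the 7 leukocyte markers 6.00 to 6.17. Of all genes, 18.6% rose and 17.2% fell at 6 h, 13.3% and 13.3% at 12 h, and 15.3% and 14.7% at 24 h. Of the 8 smooth muscle markers 4 rose and 2 fell at 6 h, 5 and 1 at 12 h, and 7 and 0 at 24 h. The fibroblast markers that fell numbered 5 of 6 at 6 h (median −0.36), 5 at 12 h (median −0.42) and 4 at 24 h (median −0.75), and 0 rose at any of these times, so that this shift was present at 6 h, when the phosphatase changes were also found. The part of these markers in the results on the phosphatases was not tested. In bulk RNA, fewer cells of a type and less RNA per cell cannot be told apart.

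Across the 4 groups 9 of the 10 phosphatase genes differed by the limma F test, where 51.5% of all genes did, and Dusp16 had adjusted p = 0.0626. At 6 h Dusp5, Dusp6, Dusp7, Dusp10 and Dusp14 rose, Dusp1, Dusp2 and Dusp8 fell, and Dusp4 and Dusp16 did not pass. That is 5 risen of 10 against 18.6% of all genes, and 3 fallen against 17.2%, or 8 changed against 35.8%. At 12 h Dusp14 alone of the 10 was still above control by the test (1 of 10 against 13.3% of all genes), and 6 had fallen (13.3% of all genes), or 7 changed against 26.6%. The fallen genes were Dusp1, Dusp2, Dusp4, Dusp5, Dusp6 and Dusp8. At 24 h Dusp14 was again the risen member (1 of 10 against 15.3%), and Dusp1, Dusp5, Dusp6, Dusp8 and Dusp10 had fallen (5 of 10 against 14.7%), or 6 changed against 30.0%. The median difference of the 10 genes from control was 0.32 at 6 h, −0.32 at 12 h and −0.26 at 24 h, where the median of all genes was 0.01, 0.00 and 0.05. The 3 comparisons share the same control arrays, and each is given with its own values.

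**Figure D1:**
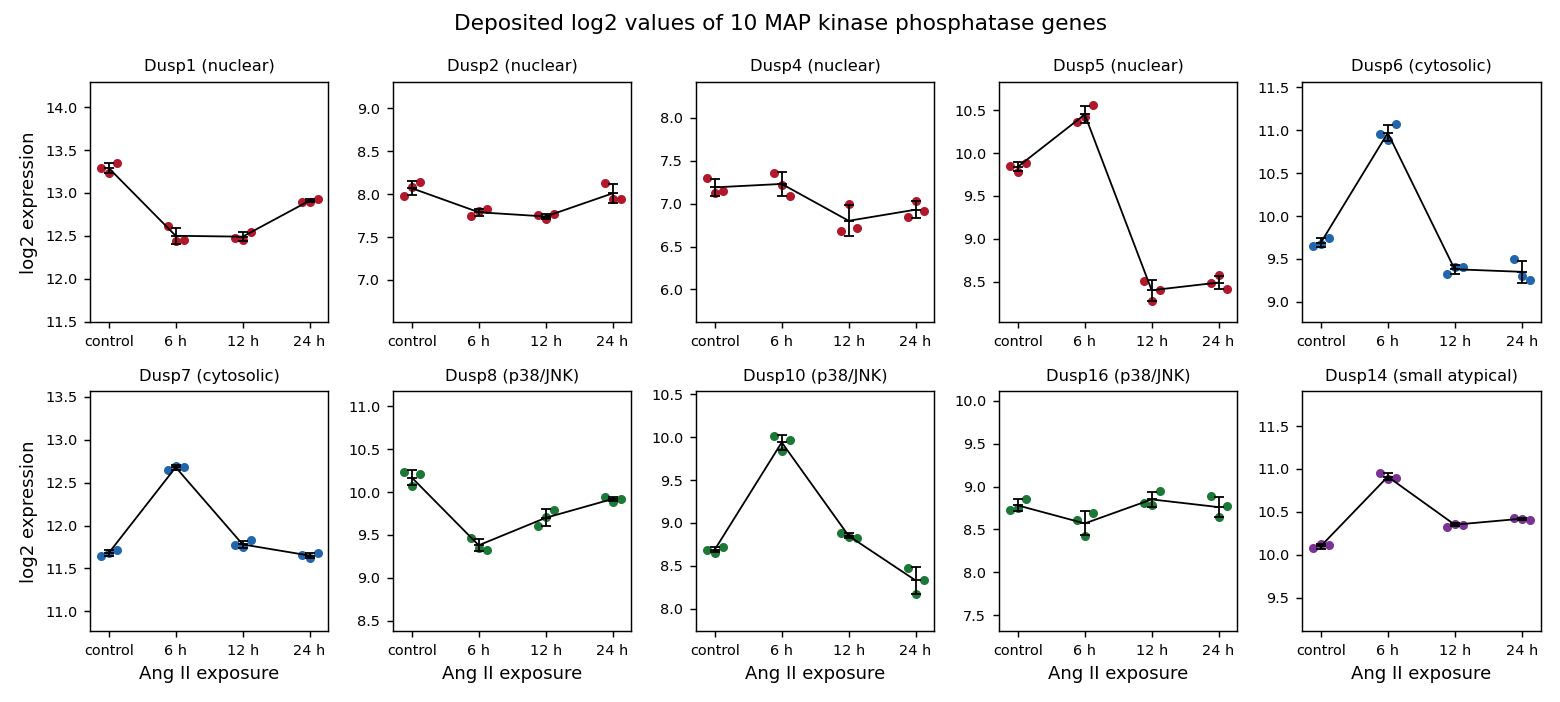
Deposited log2 expression of the 10 MAP kinase phosphatase genes (vertical axis, each panel spanning the same 2.8 log2 units around its own middle) in control and after 6, 12 and 24 h of Ang II. Coloured points are the 3 arrays of a group, and black bars are mean ± SD. Dusp5, Dusp6, Dusp7, Dusp10 and Dusp14 peak at 6 h, whereas Dusp1, Dusp2 and Dusp8 have their highest mean in control. For Dusp2 the control and 24 h arrays overlap.

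The cytosolic phosphatases Dusp6 and Dusp7 both rose at 6 h and both fell from 6 h to 12 h. Dusp6, which is selective for ERK and also holds it in the cytosol, measured 9.65, 9.67 and 9.74 in the control arrays, 10.96, 10.89 and 11.07 at 6 h, 9.32, 9.41 and 9.41 at 12 h, and 9.50, 9.30 and 9.25 at 24 h. Every 6 h array lay above every other array, and every 12 h and 24 h array lay below the control arrays. Dusp6 was thus 2.43-fold higher at 6 h (log2 difference 1.28 ± 0.07, SE, n = 3 per group, adjusted p = 4.43e-08), and lower than control at 12 h (−0.31 ± 0.07, adjusted p = 0.00575) and at 24 h (−0.34 ± 0.07, adjusted p = 0.00322).

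Between 6 h and 12 h Dusp6 fell 3.01-fold (−1.59 ± 0.07, adjusted p = 4.04e-08). The 12 h and 24 h levels did not pass as different (−0.03 ± 0.07, adjusted p = 0.794). Its order of levels was therefore 6 h, then control, then 12 h and 24 h, with the last pair unresolved.

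Dusp7, a relative of Dusp6 that also prefers ERK, measured 11.65, 11.68 and 11.71 in control and 12.65, 12.70 and 12.68 at 6 h, with 0.03 SD in either group. At 12 h it measured 11.77, 11.75 and 11.83, and at 24 h 11.66, 11.62 and 11.68. The 6 h arrays stood above all others, and the 24 h arrays overlapped with control. The rise at 6 h was 1.99-fold (log2 difference 1.00 ± 0.04, adjusted p = 5.11e-09). Differences from control at 12 h (0.10 ± 0.04, adjusted p = 0.0922) and 24 h (−0.03 ± 0.04, adjusted p = 0.635) did not pass, although that at 12 h did among genes above the median level (adjusted p = 0.0319) and with trended and robust variance (0.0134). Dusp7 fell from 6 h to 12 h by 0.89 ± 0.04 on the log2 scale (adjusted p = 4.69e-08). From 12 h to 24 h it fell by 0.13 ± 0.04 (adjusted p = 0.0346), a call that was lost without 12 h replicate 1 (adjusted p = 0.0547), without 12 h replicate 3 (0.125), and without 24 h replicate 1 (0.0540), 2 (0.105) or 3 (0.0528). It was also lost with the 2 groups alone (adjusted p = 0.111), centred array medians (0.118), array weights (0.0567) and all probe sets (0.0587). Dusp6 thus ended below control, and Dusp7 ended at a level that the test did not separate from control.

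Of the nuclear phosphatases only Dusp5 rose at 6 h by the test. Dusp5, which dephosphorylates ERK and anchors it in the nucleus, measured 9.85, 9.78 and 9.88 in control and 10.36, 10.42 and 10.56 at 6 h. At 12 h it measured 8.51, 8.27 and 8.40, and at 24 h 8.49, 8.58 and 8.41. All 6 h arrays were above control and all 12 h and 24 h arrays were more than 1 log2 unit below it, so that the late groups overlapped with each other and with neither early group.

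Dusp5 was 1.53-fold higher at 6 h (log2 difference 0.61 ± 0.07, adjusted p = 2.91e-05), 2.72-fold lower at 12 h (−1.44 ± 0.07, adjusted p = 4.32e-08) and 2.54-fold lower at 24 h (−1.34 ± 0.07, adjusted p = 9.77e-08). The step from 6 h to 12 h, 4.14-fold downwards (−2.05 ± 0.07, adjusted p = 1.16e-08), was the widest between neighbouring times among the 10 genes. The 24 h and 12 h levels did not pass as different (0.10 ± 0.07, adjusted p = 0.336).

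Dusp1, the founding member of the family, which acts on p38, JNK and ERK and is an immediate-early gene, measured 13.29, 13.23 and 13.35 in control. It measured 12.61, 12.44 and 12.45 at 6 h, 12.48, 12.45 and 12.55 at 12 h, and 12.90, 12.90 and 12.93 at 24 h. Control was highest, 24 h lay between, and the 6 h and 12 h arrays overlapped at the bottom. Dusp1 fell by 0.79 ± 0.05 on the log2 scale at 6 h (adjusted p = 2.94e-07) and by 0.80 ± 0.05 at 12 h (adjusted p = 5.00e-07), and at 24 h it was 1.30-fold below control (−0.38 ± 0.05, adjusted p = 0.000201). The 12 h and 6 h levels differed by −0.01 ± 0.05 (adjusted p = 0.945), and from 12 h to 24 h Dusp1 rose (0.42 ± 0.05, adjusted p = 0.000147).

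Dusp2, first known from activated lymphocytes and active on ERK and p38, was lower at 6 h and 12 h, by less than Dusp1, and was not separated from control at 24 h. Its arrays lay at 7.98, 8.09 and 8.14 in control, 7.75, 7.80 and 7.83 at 6 h, 7.76, 7.71 and 7.77 at 12 h, and 8.13, 7.94 and 7.95 at 24 h. The 6 h and 12 h arrays were below all control arrays, and the 24 h arrays overlapped with control. A filter that kept genes above the median of the gene means removed Dusp2, and the part of background in its levels was not tested. Dusp2 fell at 6 h (−0.28 ± 0.06, adjusted p = 0.00278) and 12 h (−0.32 ± 0.06, adjusted p = 0.00140) and rose from 12 h to 24 h (0.26 ± 0.06, adjusted p = 0.00644), when its difference from control was −0.06 ± 0.06 (adjusted p = 0.455).

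Dusp4, a nuclear phosphatase of ERK and JNK, had arrays at 7.3, 7.12 and 7.15 in control, 7.36, 7.22 and 7.09 at 6 h, 6.68, 7.00 and 6.72 at 12 h, and 6.84, 7.03 and 6.92 at 24 h. These levels were near or below the array medians of 7.22 to 7.32, and the filter at the median level removed Dusp4. The part of background in them was not tested. For Dusp4, control and 6 h arrays overlapped, and those of 12 h and 24 h lay below both. Its difference from control was 0.04 ± 0.10 at 6 h (adjusted p = 0.834), it fell at 12 h (−0.39 ± 0.10, adjusted p = 0.00958), and the value of −0.26 ± 0.10 at 24 h did not pass (adjusted p = 0.0616). That last difference passed without 12 h replicate 2 (adjusted p = 0.0300), which enters it only through the shared variance, and also with the 2 groups alone (0.0311), quantile normalization (0.0216) and trended variance (0.0359). Dusp4 also fell between 6 h and 12 h (−0.42 ± 0.10, adjusted p = 0.00558). Its fall from 6 h to 24 h (adjusted p = 0.0283) was lost without 6 h replicate 1 (0.115) or 2 (0.0577) and without 24 h replicate 1 (0.0968) or 3 (0.0669), and with centred array medians (0.0684).

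**Figure D2:**
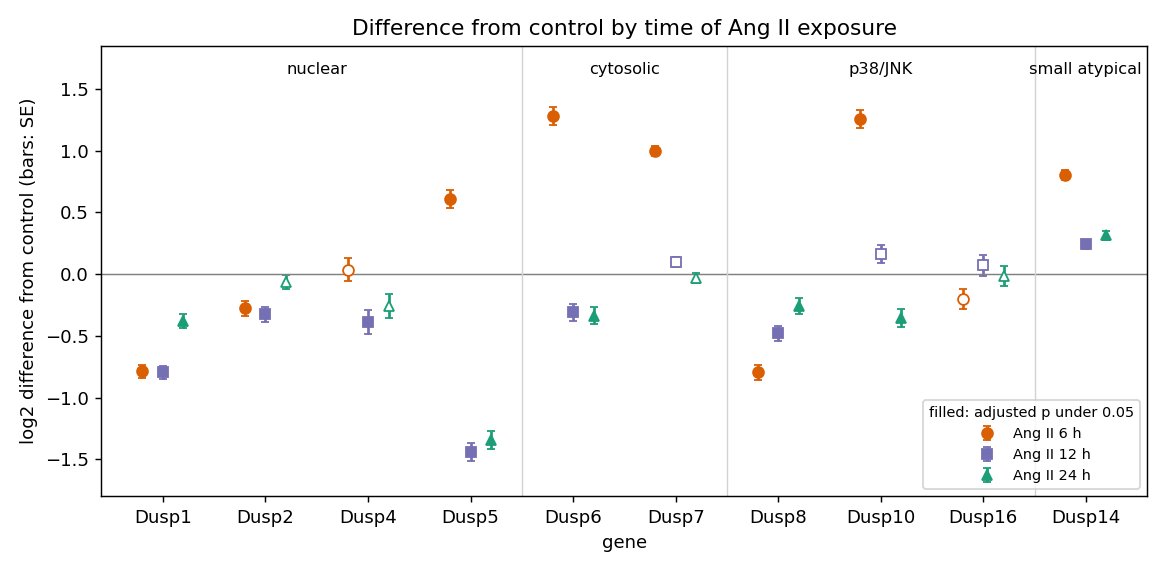
Log2 difference from control (vertical axis) of each phosphatase gene after 6 h (circles), 12 h (squares) and 24 h (triangles) of Ang II, with bars of 1 SE and filled symbols where adjusted p was under 0.05. Dusp5 goes from 0.61 at 6 h to −1.44 at 12 h, and the cytosolic Dusp6 and Dusp7 are at 1.28 and 1.00 at 6 h.

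The phosphatases of JNK and p38 went different ways. Dusp10, which is selective for these stress-activated kinases, measured 8.69, 8.65 and 8.72 in control and 10.02, 9.84 and 9.97 at 6 h. At 12 h it measured 8.88, 8.84 and 8.82, and at 24 h 8.48, 8.17 and 8.34. The 6 h arrays stood above all others and the 24 h arrays below all others, and the 12 h arrays lay narrowly above control. Dusp10 rose 2.39-fold at 6 h (log2 difference 1.26 ± 0.07, adjusted p = 7.97e-08) and was 1.28-fold lower than control at 24 h (−0.35 ± 0.07, adjusted p = 0.00307). At 12 h the difference of 0.16 ± 0.07 did not pass (adjusted p = 0.130), but it did with the 2 groups alone (0.0300), quantile normalization (0.0378) and centred array medians (0.0478). Dusp10 fell from 6 h to 12 h (−1.09 ± 0.07, adjusted p = 9.21e-07) and again from 12 h to 24 h (−0.52 ± 0.07, adjusted p = 0.000274).

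Dusp8, which also targets JNK and p38, measured 10.24, 10.07 and 10.21 in control, 9.46, 9.35 and 9.33 at 6 h, 9.6, 9.71 and 9.79 at 12 h, and 9.94, 9.89 and 9.92 at 24 h. The 4 groups did not overlap and ran upwards from 6 h to 12 h, 24 h and control. Dusp8 was 1.73-fold lower at 6 h (−0.79 ± 0.06, adjusted p = 9.44e-07), 1.39-fold lower at 12 h (−0.48 ± 0.06, adjusted p = 0.000109) and 1.2-fold lower at 24 h (−0.26 ± 0.06, adjusted p = 0.00765). It rose from 6 h to 12 h (0.32 ± 0.06, adjusted p = 0.00226) and from 12 h to 24 h (0.22 ± 0.06, adjusted p = 0.0204). The last of these calls was lost without 12 h replicate 1 (0.17, adjusted p = 0.0720) and without 24 h replicate 1 (adjusted p = 0.0547) or 3 (0.0519).

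Dusp16, a JNK-preferring member that shuttles between nucleus and cytosol, had the narrowest range of group means among the 10 genes, 0.27 on the log2 scale. Its arrays ranged from 8.73 to 8.85 in control, 8.42 to 8.69 at 6 h, 8.78 to 8.95 at 12 h and 8.64 to 8.89 at 24 h. The 6 h arrays were the lowest group and lay below all control arrays, and the 12 h and 24 h arrays overlapped with control. Its differences from control were −0.20 ± 0.08 at 6 h (adjusted p = 0.0760), 0.07 ± 0.08 at 12 h (adjusted p = 0.607) and −0.01 ± 0.08 at 24 h (adjusted p = 0.923). The difference at 6 h passed without 6 h replicate 3 (−0.26, adjusted p = 0.0390), and also among genes above the median level (adjusted p = 0.0261), after quantile normalization (0.0288), with trended and robust variance (0.0266) and with array weights (0.0495). The difference of 24 h from 6 h (0.19 ± 0.08, adjusted p = 0.0865) passed without 6 h replicate 3 (adjusted p = 0.0458) or 24 h replicate 2 (adjusted p = 0.0418), and with the filter (0.0343), quantile normalization (0.00797), centred array medians (0.0175) and trended variance (0.0358). From 6 h to 12 h Dusp16 rose (0.27 ± 0.08, adjusted p = 0.0266), a call lost without 6 h replicate 2 (0.20, adjusted p = 0.104) or 12 h replicate 3 (0.22, adjusted p = 0.101) and with the 2 groups alone (adjusted p = 0.0543).

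Dusp14 stayed above control throughout. It measured 10.08, 10.13 and 10.11 in control, 10.95, 10.88 and 10.90 at 6 h, 10.32, 10.36 and 10.35 at 12 h, and 10.43, 10.42 and 10.41 at 24 h. No 2 groups overlapped, and the order from the top was 6 h, 24 h, 12 h and control. The rise was 1.75-fold at 6 h (0.80 ± 0.04, adjusted p = 1.26e-08), 1.18-fold at 12 h (0.24 ± 0.04, adjusted p = 0.000437) and 1.24-fold at 24 h (0.32 ± 0.04, adjusted p = 5.22e-05). The neighbouring 24 h and 12 h levels did not pass as different (0.07 ± 0.04, adjusted p = 0.165), except with centred array medians (0.11, adjusted p = 0.0294).

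Between times, 6 of the 10 genes fell from 6 h to 12 h (13.9% of all genes fell) and 2 rose (13.1%), so that 8 changed against 27.0%. From 12 h to 24 h, 3 rose (14.0% of all genes) and 2 fell (13.5%), so that 5 changed against 27.5%. From 6 h to 24 h, 6 fell (19.8%) and 3 rose (19.4%), so that 9 changed against 39.2%. The genes that fell from 6 h to 12 h were Dusp4, Dusp5, Dusp6, Dusp7, Dusp10 and Dusp14, and the same 6 were the ones lower at 24 h than at 6 h. Arrays of the groups compared were free of overlap in 9 of the 10 genes at 6 h, 9 at 12 h and 7 at 24 h against control, where 47.2%, 40.8% and 44.8% of all genes were. Between times they were free of overlap in 8 genes from 6 h to 12 h (39.3% of all genes), 6 from 12 h to 24 h (40.3%) and 9 from 6 h to 24 h (48.9%).

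Likeness between members was described by Pearson's r over the 12 arrays, which share the differences between the 4 groups. Dusp6 was most like Dusp7 (r = 0.962), Dusp7 and Dusp10 were most like each other (0.965), and Dusp14 was most like Dusp7 (0.910). Dusp1 and Dusp8 were most like each other (0.910), and Dusp2 was most like Dusp1 (0.869). Dusp5, although nuclear, was most like the cytosolic Dusp6 (0.866), and Dusp4 was most like Dusp5 (0.797). Dusp16 had the lowest best match, Dusp8 at 0.517.

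Among all other genes, the 3 closest to Dusp5 were Phlda1 (r = 0.997), Plk3, a polo-like kinase gene (0.992), and Arc, an immediate-early gene best known from neurons (0.990). Plk3 rose at 6 h (0.46 ± 0.09) and fell at 12 h (−1.61 ± 0.09), and Arc did likewise (0.37 ± 0.11 and −1.27 ± 0.11), next to 0.61 and −1.44 for Dusp5. Phlda1 moved less in either direction (0.27 ± 0.04 and −0.70 ± 0.04). The 3 closest to Dusp6 were Sertad1 (r = 0.994), Map2k3, the gene of a kinase that activates p38 (0.990), and Sipa1, the gene of a GTPase-activating protein for Rap (0.989). At 6 h Map2k3 rose by 1.19 ± 0.04, Sertad1 by 0.68 ± 0.05 and Sipa1 by 0.52 ± 0.04 on the log2 scale, next to 1.28 for Dusp6. These genes were picked for their likeness, and their courses are a description.

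**Figure D3:**
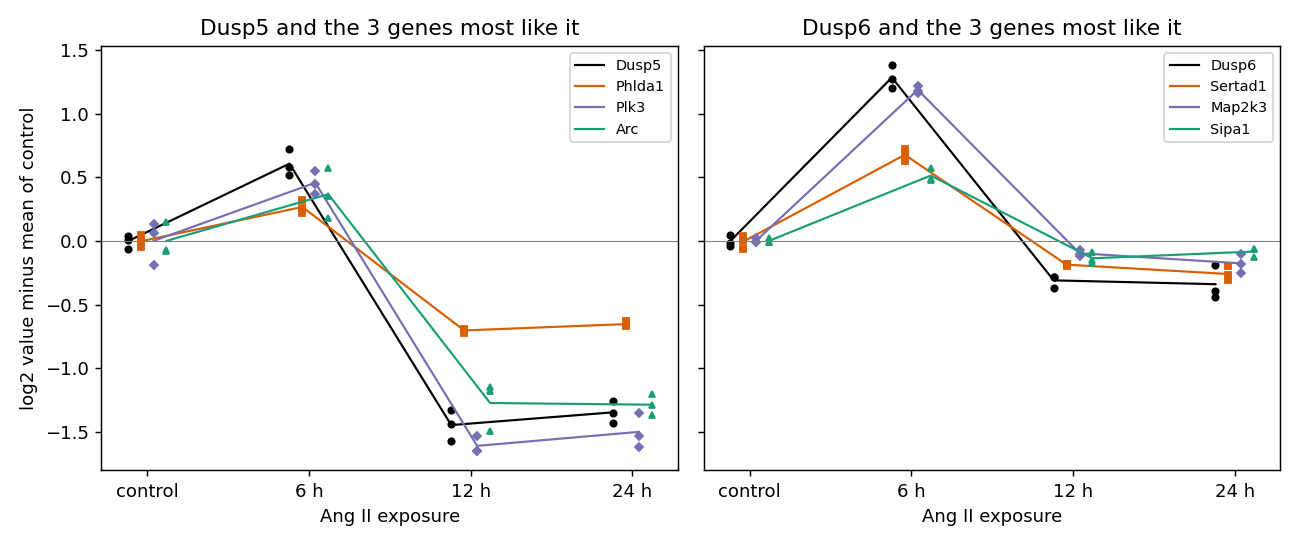
Log2 value minus the mean of control (vertical axis) in control and after 6, 12 and 24 h of Ang II, for Dusp5 with Phlda1, Plk3 and Arc (left) and for Dusp6 with Sertad1, Map2k3 and Sipa1 (right). Points are the 3 arrays of a group and lines join the group means. The genes on the left end below control by 0.65 to 1.5, and those on the right end within 0.34 of control.

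RefSeq promoter sequences of the rat assembly GRCr8 were matched for 9 of the 10 genes, with 3 starts for Dusp14. The 250 bases before each start were searched on both strands for 5 patterns. The first 3 were the cyclic AMP response element (CRE, TGACGTCA), its half-site (TGACG, which every CRE contains) and the AP-1 site (TGANTCA). The others were a longer form of the ETS site (CCGGAA) and the CArG box, the element bound by serum response factor. These elements are known from genes that respond to growth factors and MAP kinases. Dusp5 held 2 CArG boxes, a letter pattern present in 1.5% of all 33469 promoter windows, 82 to 73 and 72 to 63 bases before the start, side by side, and a CRE half-site (18.2% of windows) at 55 to 51. Dusp1 held a CRE, present in 1.59% of windows, 124 to 117 bases before the start, and a further half-site at 172 to 168. Dusp6 held none of the 5 patterns, as did Dusp7, Dusp8 and Dusp10. Other forms of these sites, such as a shorter ETS site, were not searched. Dusp2 and Dusp16 each held a half-site. Of the 3 windows of Dusp14 the second held the ETS pattern (12.6% of windows) and the third an AP-1 site (6.34%) and a half-site. A match is a description of letters and not evidence of binding.

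The stretches of Dusp5, Dusp1 and Dusp6 are shown because these genes took the 3 main courses described above: up and then far down, down throughout, and up and back to slightly below control. Each runs 5′ to 3′ towards the start, and capitals mark matches to the patterns searched. That of Dusp5 lies at chr1:262543524-262543773, plus strand, that of Dusp1 at chr10:17184603-17184852, plus strand and that of Dusp6 at chr7:35979354-35979603, plus strand.
Dusp5: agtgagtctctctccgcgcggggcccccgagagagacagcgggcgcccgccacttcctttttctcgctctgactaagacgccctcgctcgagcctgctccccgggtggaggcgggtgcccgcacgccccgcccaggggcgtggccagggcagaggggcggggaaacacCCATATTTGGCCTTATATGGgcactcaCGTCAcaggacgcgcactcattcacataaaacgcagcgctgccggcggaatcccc
Dusp1: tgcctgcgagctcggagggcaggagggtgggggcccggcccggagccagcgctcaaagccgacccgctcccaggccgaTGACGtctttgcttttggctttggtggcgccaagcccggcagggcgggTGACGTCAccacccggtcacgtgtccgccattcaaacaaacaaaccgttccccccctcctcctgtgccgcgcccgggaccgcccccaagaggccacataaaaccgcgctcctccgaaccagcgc
Dusp6: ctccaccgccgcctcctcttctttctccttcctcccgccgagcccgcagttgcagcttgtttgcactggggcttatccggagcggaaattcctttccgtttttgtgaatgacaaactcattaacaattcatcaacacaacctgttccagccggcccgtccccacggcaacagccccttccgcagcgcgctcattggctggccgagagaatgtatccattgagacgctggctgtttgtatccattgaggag

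The rest of the MAP kinase pathway was described through lists of its genes, beside the 10 phosphatases. Counts of each list here and below stand beside shares of all genes. These were 18.6% risen and 17.2% fallen at 6 h, 13.3% and 13.3% at 12 h, and 15.3% and 14.7% at 24 h. No list was tested as a set against these shares. Of the other dual-specificity phosphatases, 15 of 20 listed were measured: 2 rose and 4 fell at 6 h, 3 and 5 at 12 h, and 3 and 2 at 24 h, with medians of −0.02, 0.05 and 0.11. The largest changes there were falls of Dusp19 (−0.95 ± 0.09) and Styxl1 (−0.89 ± 0.06) and a rise of Dusp18 (0.54 ± 0.06), all at 6 h, and a fall of Ssh2, a slingshot phosphatase of cofilin (−0.54 ± 0.06 at 24 h). None of the 15 had a difference as wide as the 1.28 of Dusp6. The tyrosine phosphatases of MAP kinases, Ptprr, Ptpn5 and Ptpn7, did not pass by limma at any of the 3 times; without adjustment, p was under 0.05 for 0 of 3 at 6 h, for Ptprr at 12 h and for Ptpn7 at 24 h.

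Of 13 listed MAP kinases, 11 were measured. Of these, 2 rose and 0 fell at 6 h, 1 and 1 at 12 h, and 5 and 0 at 24 h. Mapk6, an atypical family member, rose at 6 h (0.53 ± 0.05) and 12 h (0.35 ± 0.05), Mapk8, which encodes JNK1, fell at 12 h (−0.30 ± 0.06), and Mapk14, which encodes p38 alpha, rose at 24 h (0.26 ± 0.05), as did Mapk4 (0.32 ± 0.10). Group means of Mapk4, 6.56 to 7.01, lay below the array medians of 7.22 to 7.32, and the part of background in them was not tested. Differences of these kinases from control ranged from −0.14 (Mapk4) to 0.53 (Mapk6) at 6 h, when those of the phosphatases ranged from −0.79 to 1.28.

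Of the 7 MAP kinase kinases, 3 rose and 3 fell at 6 h, 1 and 2 at 12 h, and 1 and 3 at 24 h. Map2k3 rose at 6 h as given above, Map2k1, which encodes the ERK activator MEK1, rose at all 3 times (0.76 ± 0.05, 0.98 ± 0.05 and 0.36 ± 0.05), and Map2k6, also an activator of p38, and Map2k5, the activator of ERK5, fell at all 3 (−0.71 ± 0.10 for Map2k6 and −0.66 ± 0.09 for Map2k5 at 6 h). Group means of Map2k6, 6.05 to 6.76, lay below the array medians of 7.22 to 7.32, and the part of background in them was not tested. Of 12 kinases one step further up, 5 rose and 2 fell at 6 h, 4 and 1 at 12 h, and 4 and 3 at 24 h. Map3k6 had the widest difference, 2.22 ± 0.06 at 6 h and 0.78 ± 0.06 at 12 h, and Map3k11 rose at 6 h (0.38 ± 0.08), Map3k4 fell at 6 h (−0.48 ± 0.09) and Araf rose at 24 h (0.39 ± 0.04).

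Genes known to respond to ERK were split at 6 h and low afterwards: 9 of 19 rose and 9 fell at 6 h, 2 and 12 at 12 h, and 1 and 16 at 24 h, with medians of 0.08, −0.54 and −0.65. The transcription factor genes Egr1, Fos, Egr3 and Egr2 fell at all 3 times, with differences of −1.29 ± 0.07 at 6 h and −3.53 ± 0.07 at 12 h for Egr1, and of −1.85 ± 0.10 and −2.80 ± 0.10 for Fos. Dusp1 was below control at 6 h and at 12 h, as these 4 genes were. Dusp5, Dusp6 and Dusp7 were above it at 6 h, as were the 9 ERK-responsive genes that rose. The widest of those rises at 6 h were Fosl1 (2.35 ± 0.06), Etv5 (0.78 ± 0.07) and Spry2 (0.78 ± 0.07).

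**Figure D4:**
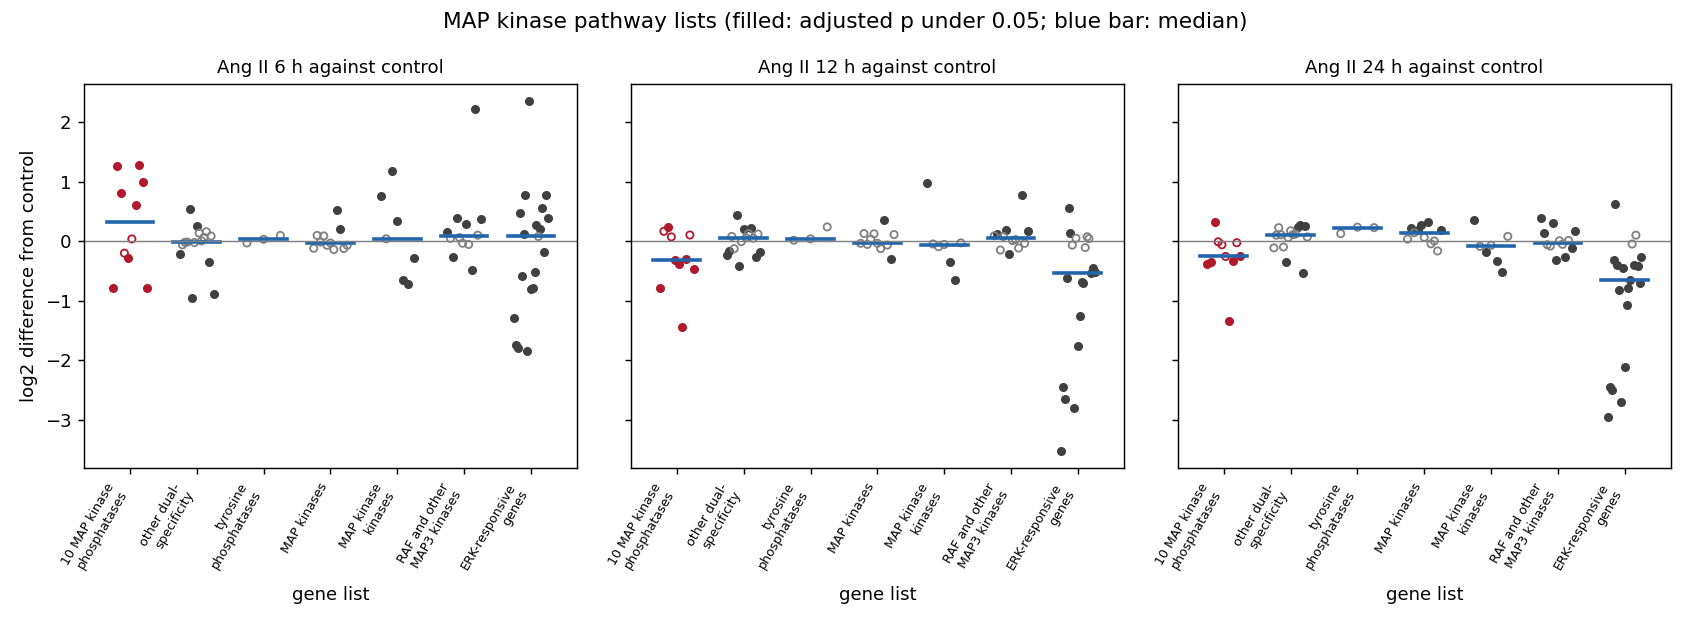
Log2 difference from control (vertical axis) of the 10 phosphatase genes (red) and of 6 lists of other MAP kinase pathway genes (black or grey) after 6, 12 and 24 h of Ang II. Each point is a gene, filled where adjusted p was under 0.05, and blue bars are list medians. The phosphatases have a median of 0.32 at 6 h and −0.32 at 12 h, and the ERK-responsive genes go from 0.08 to −0.54.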

How the data were processed

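Expression was analysed as deposited by the authors, on the log2 scale; RMA and Partek are named in the submitters' processing notes. No tool version, summary level or genome build is stated in the sources used here. The table has 29214 probe sets, of which 15310 have 1 gene symbol in the platform's annotation. Of a gene's probe sets the brightest over 12 arrays was kept, which left 14506 genes (each phosphatase gene had 1 probe set). Symbols of 15279 probe sets were looked up by gene identifier in RefSeq's GRCr8 table, and 0 changed.

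A model of 4 group means was fitted with limma 3.58.1 in R 4.3.3 (8 residual and 3.37 prior degrees of freedom, two-sided tests), with Benjamini-Hochberg adjustment over all genes within each of 6 comparisons at a threshold of 0.05. The fit was tested on simulated data with known changes at 24 h against control, in 50 genes at each fold. It recovered 62% of them at 1.25-fold, 88% at 1.5-fold and 100% at 2-fold and at 4-fold, and called 10 unchanged genes. Only these genes were changed in the simulation, with independent noise, whereas 30.0% of all genes passed at 24 h in the data. The recovered shares therefore need not hold for the real comparisons. The members and lists were chosen with earlier results of these data known. The named genes are all members, up to 4 passing genes of each pathway list by largest difference from control, and the 3 genes most correlated with the nuclear and the cytosolic member of widest range. Outside this rule, Ptprr, Ptpn5 and Ptpn7 are named as the whole of a list in which 0 of 3 passed, and Acta2, Myh11, Pecam1 and Ptprc as cell type markers. Fosl1, Etv5 and Spry2 are also named outside it, for the widest rises at 6 h among the ERK-responsive genes. Alternatives were the 2 groups alone, a replicate block, omitting arrays in turn, keeping genes above the median level, quantile normalization, median centring, trended and robust variance, array weights, the mean of probe sets and all probe sets. Arrays have no read depth, and their number limits the precision. Tables and figures were made with Python 3.11.15, pandas 2.3.3 and matplotlib 3.10.9.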

Additional observations from a re-analysis of the deposited data

Results flagged for a closer look

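The differences of 3 phosphatase genes from control passed the test in opposite directions at different times of Ang II, and the difference between those times passed too. The share of all genes that meet this rule was not computed, so that the count is a description only. Dusp5 was above control at 6 h and below it later, with 12 h against 6 h at −2.05 and 24 h against 6 h at −1.95 on the log2 scale. Dusp6 was above control at 6 h and below it at 12 h (12 h against 6 h at −1.59) and at 24 h (24 h against 6 h at −1.62). Dusp10 was above control at 6 h and below it at 24 h, with 24 h against 6 h at −1.61. Groups of 3 arrays are too small for a test of outlying arrays.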

How the results depend on the processing

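Of 60 differences (10 genes in 6 comparisons), 43 passed, and 39 of these passed under every one of 9 alternatives and 12 left-out arrays that gave a value, with 0 changes of sign among the 43. The value of a difference could change only with quantile normalization, centred medians, array weights or a left-out array of the 2 groups compared. The other settings could change only its p-value, so that a change of sign was not possible there. The 4 that were lost under 1 or more settings were Dusp16 at 12 h against 6 h, Dusp7 and Dusp8 at 24 h against 12 h and Dusp4 at 24 h against 6 h, and 6 that had not passed did so under 1 or more (Dusp16 at 6 h, Dusp7 and Dusp10 at 12 h and Dusp4 at 24 h against control, Dusp14 at 24 h against 12 h and Dusp16 at 24 h against 6 h). The count of risen members at 12 h against control was 2 instead of 1 with only the 2 groups compared, with the filter at the median level, with quantile normalization, with centred medians and with trended variance. The added gene was Dusp7 with the filter and with trended variance, and Dusp10 otherwise. At 12 h against 6 h the count of risen members was 1 instead of 2 with only the 2 groups compared, and 1 to 2 over left-out arrays. At 24 h against 12 h the count of fallen members was 1 instead of 2 with only the 2 groups compared, with centred medians, with array weights and with all probe sets, and 1 to 2 over left-out arrays. The cause was not tested. Changes of sign occurred among values near 0 that never passed: Dusp16 at 24 h against control (0.0522 with quantile normalization, 0.0434 with centred medians, −0.0732 to 0.0488 over left-out arrays), Dusp7 at 24 h against control (0.028 with centred medians), Dusp6 at 24 h against 12 h (0.0115 with centred medians, −0.10 to 0.0232 over left-out arrays), Dusp4 at 6 h against control (−0.0323 to 0.10) and Dusp1 at 12 h against 6 h (−0.0385 to 0.046). The filter at the median level removed Dusp2 and Dusp4.

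Whether replicate numbers pair the samples was not settled. Of 18 pairs of arrays with the same number in different groups, 3 had deviations correlated over 0.1 (−0.103 to 0.299). Pairs with different numbers lay at −0.28 to 0.257, and 7 of 12 arrays correlated best with their own number. With the replicate number as a block 5059 genes passed at 6 h, 3731 at 12 h and 4295 at 24 h against control, compared with 5191, 3855 and 4358, and Dusp16 passed at 6 h against control (adjusted p = 0.0290) and at 24 h against 6 h (adjusted p = 0.0348).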
